A study of Mus musculus with 12 samples.

Results

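The p53 target genes are a set of 42 genes whose transcription the tumour suppressor p53 is known to switch on. They were looked up on the arrays by symbol, keeping probe sets annotated to exactly 1 of these symbols and, for each gene, the brightest such probe set. By this rule 39 of the 42 genes were measured, among 19938 genes on the arrays. Cdkn1a, which encodes the cell cycle inhibitor p21, was only on a probe set that carried 2 symbols and was left out, and Bax and Gdf15 were not analysed here. Fbxw7 alone of the 39 had more than 1 probe set, and the probe sets of 7 members lay below the median probe set.

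The cells were bone marrow of adult mice (strain labelled C57/BL6/C3H), given a retrovirus that carried 1 of 4 constructs, with 3 arrays each. MIG is the empty vector and the control. CALM-AF10 is a leukaemia fusion protein, CALM-AF10 ΔOM-LZ is that fusion without the segment named OM-LZ, and CALM(400-648)+AF10 (677-758), here called the minimal fusion, joins a fragment of each partner. All 4 groups shared the rest: donors had received 5-fluorouracil, a drug that kills dividing cells, 4 days before harvest, and the marrow was stimulated for 48 h in culture. It was laid over virus-producing GFP+E86 cells irradiated with 40 Gy, with cytokines and 5 µg/ml protamine sulfate, cultured for another 48 h and sorted for GFP, with RNA taken 96 h after transduction. The labels call the replicates biological without saying whether they were separate animals, pools or transductions. A p value here sets a difference against the spread between these arrays, and what that spread stands for is not known. The fusions were expressed from a retrovirus in mixed marrow cells, not from their own gene.

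The transcription factor p53 is held low by the ubiquitin ligase Mdm2, itself one of its targets, and is released by DNA damage and other stress. It then binds paired decamers in DNA and raises genes that stop the cell cycle, repair DNA, balance oxidants or start apoptosis, along with genes that feed back on p53. In blood stem and progenitor cells it limits survival after irradiation or cytotoxic drugs, and p21, made under its control, lowers a large group of cell division genes.

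The starts of these genes were scanned for the p53 response element, since binding to it is what makes a gene a direct target. RefSeq promoter windows (GRCm38.p6, from 250 bases before to 50 after a gene's start) were on hand for 29 of the 39 genes, in 41 windows. The element was taken as 2 consensus decamers on either strand with 0 to 13 bases between them. With at most 1 mismatch over both decamers it was in the windows of 3 of the 29 genes (10.3%), against 0.718% of 27025 genes with a window. With at most 2 mismatches these figures were 5 of 29 (17.2%) and 4.71%, and with no mismatch 0 of 29 and 0.074%. The shares depend on which positions of a decamer may mismatch. The scan required the C and the G on either side of a decamer's middle bases to be intact, so a mismatch could fall only elsewhere. The 5 matches follow, each 5′ to 3′ on the strand of its gene, with decamers in capitals and any bases between them in lower case.

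Ccng1: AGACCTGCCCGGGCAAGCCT
Gtse1: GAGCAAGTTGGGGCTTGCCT
Rps27l: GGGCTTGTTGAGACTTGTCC
Gadd45a: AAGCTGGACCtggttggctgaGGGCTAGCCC
Sesn1: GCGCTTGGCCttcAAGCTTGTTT

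The matches in Ccng1 (chr11:40755462-40755481, minus strand), Gtse1 (chr15:85859945-85859964, plus strand) and Rps27l (chr9:66946296-66946315, plus strand) had 1 mismatch each and no bases between the decamers. Those in Gadd45a (chr6:67037438-67037468, minus strand) and Sesn1 (chr10:41887253-41887275, plus strand) had 2 mismatches, with 11 and 3 bases between. The match began at -195 from the start in Ccng1, at -1 in Gtse1, at -117 in Rps27l, at -61 in Gadd45a and at -186 in Sesn1. The 250 bases before the start of Ccng1 and of Gadd45a place the element in its promoter, again with only the decamers in capitals (chr11:40755287-40755536 and chr6:67037408-67037657, both minus strand).

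Ccng1: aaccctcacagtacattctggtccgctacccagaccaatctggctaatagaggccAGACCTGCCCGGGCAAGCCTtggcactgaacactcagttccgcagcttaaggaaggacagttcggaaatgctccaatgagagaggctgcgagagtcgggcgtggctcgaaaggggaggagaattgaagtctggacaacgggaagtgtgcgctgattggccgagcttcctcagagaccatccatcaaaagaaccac
Gadd45a: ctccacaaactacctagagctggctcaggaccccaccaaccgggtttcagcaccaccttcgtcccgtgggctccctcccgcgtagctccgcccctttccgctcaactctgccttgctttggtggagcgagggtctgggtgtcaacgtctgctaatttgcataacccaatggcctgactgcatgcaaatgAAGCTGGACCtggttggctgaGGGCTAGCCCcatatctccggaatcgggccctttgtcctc

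A match describes these letters and is not evidence of binding, and many known elements of p53 targets lie outside such a window.

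The values are log2 intensities, so a difference of 1 is a doubling. They ran from 2.883 to 14.272, array medians from 6.581 to 6.686, and 8 of 8 general blood cell markers were measured, with construct means between 10.95 and 11.18. Differences were tested with limma over all probe sets with a gene symbol, with a Benjamini-Hochberg adjusted p under 0.05 as the threshold. The arrays of a pair of groups do not overlap where the lowest value in 1 group exceeded the highest value in the other.

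No p53 target gene passed the adjusted p in any of the 6 comparisons between constructs. For most members, as for most genes on the arrays, the widest range within 1 construct exceeded the largest difference between construct means. Taken as the mean log2 level over the 39 genes, the arrays stood at 8.28, 8.45 and 8.56 in MIG and at 8.53, 8.16 and 8.60 in CALM-AF10 (replicates 1, 2 and 3). They stood at 8.61, 8.16 and 8.44 in ΔOM-LZ and at 8.32, 8.20 and 8.13 in the minimal fusion. The construct means were 8.43 (SD 0.143, n = 3), 8.43 (SD 0.234), 8.41 (SD 0.227) and 8.22 (SD 0.094), in the same order. The minimal fusion was lowest, by 0.211 against MIG, 0.188 against ΔOM-LZ and 0.212 against CALM-AF10, but its arrays overlapped those of every other construct. CALM-AF10 and ΔOM-LZ differed from MIG by 0.001 and -0.023, less than the spread between replicates.

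**Figure D1:**
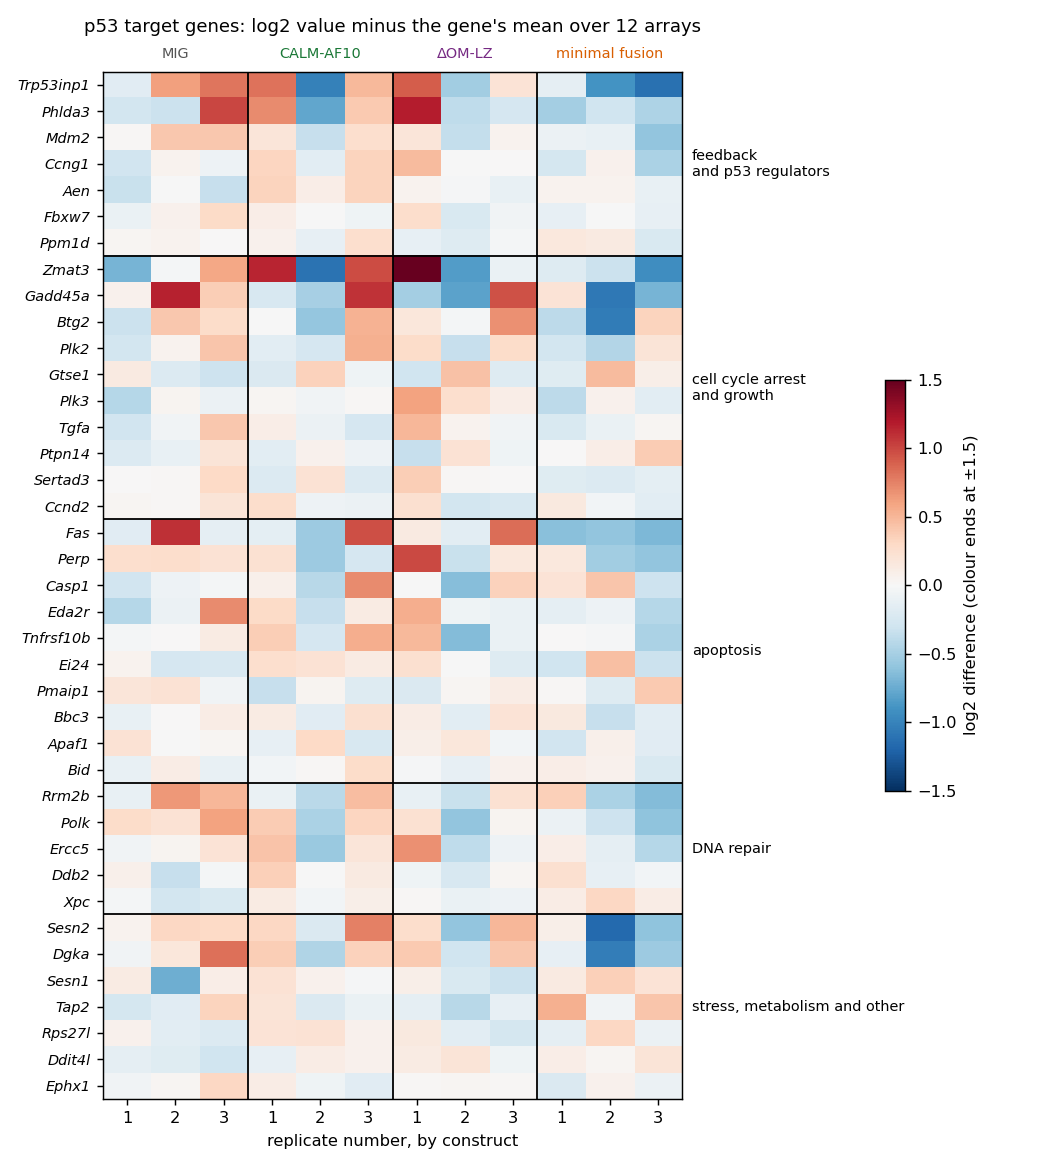
Log2 level of each of the 39 p53 target genes (rows, grouped by role) on each of the 12 arrays (columns, replicate number within construct), as the difference from that gene's mean over the arrays; colour runs from -1.5 (blue) to 1.5 (red). Red blocks lie in single arrays, such as replicates 1 and 3 of CALM-AF10 and replicate 1 of ΔOM-LZ, more than in whole constructs.

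A moderated F test over the 4 constructs also called none of the 39, where it called 0.0100% of all genes. Unadjusted, its p was under 0.05 for Aen, Xpc, Ddit4l and Plk3, 4 members, and Aen had the smallest (adjusted p = 0.995, limma). No share of all genes is given for that unadjusted p, so the 4 cannot be read as an excess. For 36 of the 39 members (92.3%) the widest range within 1 construct exceeded the largest difference between construct means, as it did for 96.1% of all genes. The median share of a member's variance that lay between constructs was 27.4%, against 22.2% for all genes. In absolute terms the members varied more. Their median SD over the 12 arrays was 0.286 against 0.176, and 11 of them (28.2%) lay above the 90th percentile of all genes.

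Zmat3, a zinc finger RNA-binding protein that restrains growth, was the most variable, spanning 6.20-fold. It read 7.12, 7.79 and 8.40 in MIG, 8.97, 6.71 and 8.80 in CALM-AF10, 9.35, 6.98 and 7.72 in ΔOM-LZ and 7.62, 7.50 and 6.89 in the minimal fusion. Its 4 highest arrays were replicate 1 of ΔOM-LZ, replicates 1 and 3 of CALM-AF10 and replicate 3 of MIG, and all 4 constructs overlapped. Phlda3, which blocks the growth kinase Akt at the membrane, spanned 3.88-fold with values of 7.57, 7.52 and 8.84 in MIG, 8.56, 7.07 and 8.23 in CALM-AF10, 9.03, 7.46 and 7.60 in ΔOM-LZ and 7.34, 7.55 and 7.38 in the minimal fusion. The same 4 arrays were highest for Zmat3, Phlda3, the death receptors Tnfrsf10b and Eda2r and the repair endonuclease Ercc5. That is 5 of 39 members (12.8%), Zmat3 itself included, against 1.38% of all genes with those 4 arrays on top. This count and the next of its kind describe a pattern taken from a member after the values were seen, and test nothing.

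Gadd45a, a stress protein that slows entry into mitosis, followed other arrays. It spanned 4.69-fold and read 8.80, 9.90 and 9.11 in MIG, 8.50, 8.25 and 9.83 in CALM-AF10, 8.23, 7.94 and 9.70 in ΔOM-LZ and 8.95, 7.67 and 8.04 in the minimal fusion. Replicate 2 of MIG and replicate 3 of CALM-AF10 and of ΔOM-LZ were its highest. Fas, a death receptor, had the same 3 on top with 7.40, 7.27 and 7.14 on them, and all other arrays lay between 5.64 and 6.44. Btg2, an inhibitor of proliferation, was the remaining member with this order, so 3 of 39 (7.69%), Gadd45a itself included, had it, against 1.72% of all genes. Sesn2, a guard against oxidants and a brake on mTORC1, spanned 3.80-fold, Dgka, a diacylglycerol kinase, 3.62-fold, and the desmosomal protein Perp 2.99-fold. At the quiet end, Bid, the phosphatase Ppm1d and the stress-induced Ddit4l spanned 1.42-fold, 1.40-fold and 1.41-fold.

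The other members are given by their lowest and highest log2 level over the 12 arrays. Among feedback genes, the ubiquitin ligase subunit Fbxw7 ran from 7.09 to 7.61 and Ppm1d, a phosphatase that resets p53 after damage, from 9.90 to 10.38. Btg2 ran from 8.06 to 9.79 and Plk2, a relative of Plk3, from 5.45 to 6.42, both lowest on replicate 2 of the minimal fusion. The growth factor Tgfa (7.70 to 8.50), the phosphatase Ptpn14 (6.07 to 6.80) and the cyclin Ccnd2 (11.72 to 12.25) moved less.

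Of the apoptosis genes, Tnfrsf10b ran from 7.62 to 8.82, Eda2r from 4.98 to 6.12 and the inflammatory caspase Casp1 from 7.41 to 8.76. Ei24 ran from 9.505 to 10.28, both ends within the minimal fusion. The mitochondrial death genes stayed closer together, with Pmaip1 (Noxa) at 7.49 to 8.23, Bbc3 at 7.003 to 7.59, Bid at 9.73 to 10.23 and Apaf1, the core of the apoptosome, at 9.53 to 10.11. Among repair genes, Rrm2b, a subunit of ribonucleotide reductase, ran from 6.88 to 8.18, Ercc5 from 7.14 to 8.38 and the damage sensor Ddb2 from 7.36 to 8.05. Sesn1 ran from 8.32 to 9.41, with replicate 2 of MIG alone below 8.73, Rps27l from 11.21 to 11.78 and the epoxide hydrolase Ephx1 from 5.03 to 5.57.

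**Figure D2:**
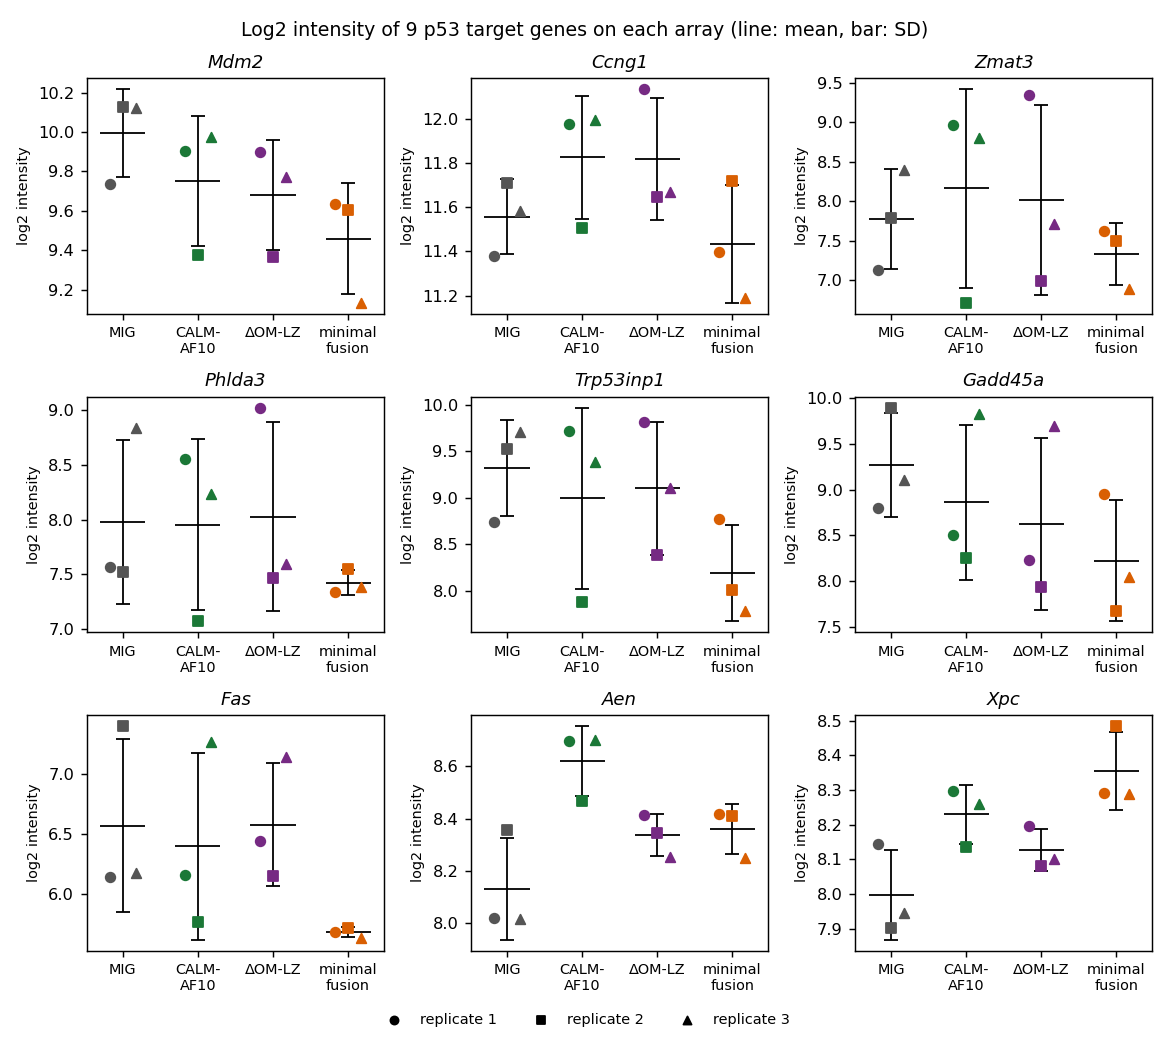
Log2 intensity (vertical axis) of 9 p53 target genes on each array by construct (horizontal axis), with marker shape for the replicate number, a line at the mean and bars of 1 SD (n = 3). Zmat3 and Phlda3 share their highest arrays, Gadd45a and Fas share others, and Aen and Xpc vary little within a construct.

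Within a construct, some contrasts between replicates took in most of the set and others did not. In ΔOM-LZ, 33 of 39 members (84.6%) were higher in replicate 1 than in replicate 2, by a median of 0.32, where 41.6% of all genes were. In CALM-AF10 the same was true of 31 of 39 (79.5%, median 0.29) against 39.3%. Replicate 3 exceeded replicate 2 for 26 of 39 (66.7%) in both, against 38.5% in CALM-AF10 and 38.2% in ΔOM-LZ. Replicates 1 and 3 of these fusions were closer to an even split, with 20 of 39 higher in replicate 1 of CALM-AF10 (51.3% against 48.0%) and 22 of 39 in that of ΔOM-LZ (56.4% against 48.8%). In MIG, replicate 1 was above replicate 2 for 11 of 39 (28.2% against 42.9%) and above replicate 3 for 13 (33.3% against 59.7%), and replicate 3 was above replicate 2 for 23 (59.0% against 37.7%). In the minimal fusion, replicate 1 was above replicate 2 for 23 of 39 (59.0% against 54.1%) and above replicate 3 for 25 (64.1% against 49.1%), and replicate 3 was above replicate 2 for 13 (33.3% against 57.2%). Gtse1, a mitotic protein that restrains p53, had other high arrays. It read 7.96, 8.51 and 8.10 in CALM-AF10, 7.88, 8.61 and 7.97 in ΔOM-LZ and 7.99, 8.65 and 8.26 in the minimal fusion, with replicate 2 the highest of each.

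Markers of cell types that mixed marrow holds also differed between arrays, each list in its own way. The mean log2 level of 11 of 11 mast cell and basophil markers was 11.6 on replicate 3 of MIG, 11.05 on replicate 1 of ΔOM-LZ and 10.7 on replicate 1 of CALM-AF10, and between 8.45 and 9.64 on the others. Of the arrays high for Zmat3, only replicate 3 of CALM-AF10 had no such level, at 9.23. Late neutrophil markers were lowest on replicate 1 of the minimal fusion (8.002) and highest on replicate 2 of ΔOM-LZ (9.76). They were also low on replicate 3 of MIG (8.31) and replicate 1 of CALM-AF10 (8.30). Monocyte markers were at 8.10 on replicate 3 of MIG and on replicate 1 of CALM-AF10, and at 9.94 on replicate 1 of ΔOM-LZ. They were lower still on the minimal fusion arrays, at 7.89, 7.91 and 7.98. By construct the mast cell mean was 10.1 (SD 1.29) in MIG, 9.59 (SD 0.944) in CALM-AF10, 10.003 (SD 0.904) in ΔOM-LZ and 8.80 (SD 0.353) in the minimal fusion. Megakaryocyte markers (8 of 12 measured) stood at 9.29 (SD 0.730), 8.38 (SD 0.347), 8.85 (SD 0.723) and 7.98 (SD 0.272), and late neutrophil markers (10 of 10) at 8.90, 8.79, 9.50 and 8.34. Monocyte and macrophage markers (9 of 12) stood at 8.75, 8.24, 8.99 and 7.93, erythroid ones (7 of 10) at 7.45, 7.27, 7.36 and 7.25, and those of fibroblasts and the producer line (12 of 12) at 7.45, 7.27, 7.26 and 7.22. The part of these cells in the levels of the p53 targets was not tested, and in bulk RNA fewer cells of a type and less RNA per cell cannot be told apart.

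The minimal fusion against the empty vector asks what that short fusion does to marrow cells. Most members stood lower in it: 27 of 39 lower and 12 higher, with a median difference of -0.17, where 47.9% of all genes were lower and the median was 0.01. No member passed the adjusted p, against 0.0401% of all genes, and 6 members (15.4%) had an unadjusted p under 0.05, against 7.72%. Arrays did not overlap for 6 members that were lower (15.4%, background 6.21%) and 3 that were higher (7.69%, background 6.15%).

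Of the 7 genes grouped as feedback and p53 regulators, Aen and Phlda3 included, 6 were lower and none passed the test. Mdm2 read 9.74, 10.13 and 10.12 in MIG and 9.64, 9.61 and 9.13 in the minimal fusion, a difference of -0.54 (SE 0.21, 95% interval -0.996 to -0.076, adjusted p = 0.584, limma). The groups did not overlap, but the lowest MIG array lay only just above the highest of the minimal fusion. Trp53inp1, which adds to p53's pro-death activity, differed by -1.13 (SE 0.50, adjusted p = 0.644, limma) with overlapping arrays: 8.73, 9.52 and 9.71 against 8.77, 8.004 and 7.78. Cyclin G1 (Ccng1), which recruits a phosphatase to Mdm2, read 11.38, 11.71 and 11.59 against 11.40, 11.72 and 11.19. Aen, a nuclease of apoptotic cells, was the feedback list's exception, 0.23 higher with overlapping arrays (adjusted p = 0.693, limma).

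Of 10 cell cycle and growth genes 8 were lower, Gadd45a by the most, at -1.05 (95% interval -2.25 to 0.15). The coactivator Sertad3 was the member of this group whose arrays did not overlap, at 6.50, 6.52 and 6.79 in MIG and 6.31, 6.29 and 6.35 in the minimal fusion. Sertad3 was dim here, below the lowest array median (6.581) on all of these arrays but replicate 3 of MIG. Of 10 apoptosis genes 7 were lower. Fas read 6.14, 7.40 and 6.17 against 5.68, 5.72 and 5.64, a difference of -0.89 (95% interval -1.81 to 0.03). No arrays overlapped, and replicate 2 of MIG stood well above the other MIG arrays. Apart from that replicate, Fas was dim on these arrays, below the lowest array median (6.581). Perp read 8.35, 8.35 and 8.31 against 8.26, 7.57 and 7.50, likewise with no overlap. Its lowest MIG array lay only just above its highest in the minimal fusion. Bbc3 (Puma), a direct trigger of mitochondrial death, differed by -0.12 with overlap.

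The DNA repair genes split. Xpc, which recognises lesions for nucleotide excision repair, read 8.14, 7.90 and 7.95 in MIG and 8.29, 8.48 and 8.29 in the minimal fusion, every array of which was higher, by 0.36 on average (SE 0.10, 95% interval 0.14 to 0.57, adjusted p = 0.428, limma). Polk, a polymerase that copies past damaged bases, read 8.45, 8.39 and 8.78 against 8.09, 7.86 and 7.58, every array lower, by -0.70 on average (SE 0.26, adjusted p = 0.574, limma). The remaining group of stress and metabolism genes had 4 higher and 3 lower. Ddit4l, a brake on mTORC1, read 5.99, 5.94 and 5.82 against 6.23, 6.15 and 6.32, a non-overlapping difference of 0.31 (SE 0.10, adjusted p = 0.53, limma). Dgka read 9.82, 10.04 and 10.69 against 9.74, 8.83 and 9.33, a non-overlapping difference of -0.88 (SE 0.32, adjusted p = 0.568, limma). Here too the lowest MIG array lay only just above the highest of the minimal fusion. Sesn1, a relative of Sesn2, read 9.19, 8.32 and 9.16 against 9.20, 9.41 and 9.27, 0.40 higher with no overlap. The highest MIG array lay only just below the lowest of the minimal fusion, and replicate 2 of MIG stood well below the other MIG arrays.

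**Figure D3:**
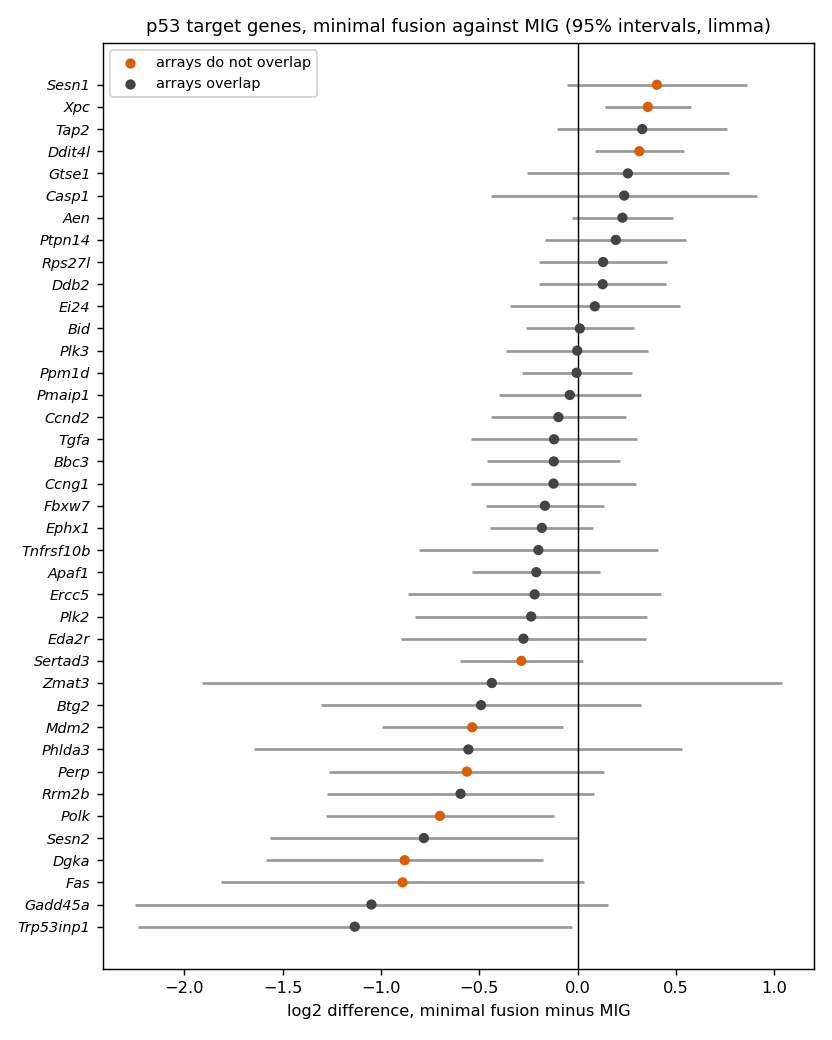
Difference in log2 intensity, minimal fusion minus MIG (horizontal axis), of each of the 39 p53 target genes (vertical axis, sorted), with 95% intervals from limma; orange points are genes whose 3 arrays in each group do not overlap. The points run from -1.13 for Trp53inp1 to 0.40 for Sesn1 and 27 of them lie below 0.

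Several marker lists stood lower in the same comparison: 8 of 8 megakaryocyte, 10 of 10 late neutrophil, 10 of 11 mast cell and 8 of 9 monocyte markers, with medians of -0.998, -0.49, -1.09 and -0.57 and none past the adjusted p. The erythroid and general blood cell lists were closer to an even split, with 4 of 7 and 4 of 8 lower. Of the markers of fibroblasts and the producer line, 8 of 12 were lower (66.7%, where 47.9% of all genes were). Their median was only -0.02. The part of these cells in the lower p53 target levels was not tested.

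CALM-AF10 against MIG gave no such lean, with 17 members higher, 22 lower and a median of -0.02. The adjusted p called no gene at all (0%), members included, and 2 members (5.13%) had an unadjusted p under 0.05, against 5.13% of all genes. Arrays did not overlap for 4 members that were higher (10.3%, background 5.94%) and for 0 that were lower (background 3.27%). The 4 were Aen, Ddit4l, Ei24, a membrane protein of the death response, and Rps27l, a ribosomal protein relative that binds Mdm2. Aen read 8.02, 8.36 and 8.02 in MIG and 8.69, 8.47 and 8.70 in CALM-AF10, a difference of 0.49 (SE 0.12, 95% interval 0.23 to 0.74, adjusted p = 0.614, limma). All 3 CALM-AF10 arrays lay above all of MIG, and above every array of the other constructs. Replicate 2 of CALM-AF10 lay only just above the highest of those, replicate 1 of the minimal fusion (8.42). Xpc was 0.23 higher (adjusted p = 0.909, limma) with overlap, and Mdm2 differed by -0.24 with an interval from -0.70 to 0.22.

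CALM-AF10 ΔOM-LZ against MIG gave 23 members higher and 16 lower, with a median of 0.01. The adjusted p again called no gene (0%), and 2 members had an unadjusted p under 0.05 (5.13%, background 3.87%). Arrays did not overlap for 2 higher members (5.13%, background 3.57%) and 1 lower, the phosphatase Ppm1d (2.56%, background 4.23%). Plk3, a stress-responsive polo-like kinase, read 8.07, 8.53 and 8.41 in MIG and 9.10, 8.74 and 8.59 in ΔOM-LZ, 0.47 higher (SE 0.16, adjusted p = 0.999, limma). Its lowest ΔOM-LZ array lay only just above its highest MIG array. Ddit4l was 0.29 higher (SE 0.10, adjusted p = 0.999, limma) at 6.26, 6.32 and 6.06. Ddit4l thus stood above the MIG arrays in all 3 fusions, which share those MIG arrays. The differences were 0.31 in the minimal fusion, 0.23 in CALM-AF10 and 0.29 in ΔOM-LZ. Ddit4l was dim, below the lowest array median (6.581) on every array. The lowest CALM-AF10 array (6.006) lay only just above the highest of MIG (5.994).

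CALM-AF10 and CALM-AF10 ΔOM-LZ differ by the OM-LZ segment. Across all genes their arrays of equal replicate number deviated from the construct means together (r = 0.729, 0.722 and 0.697). No other pair of constructs showed this for all 3 numbers, so the members in CALM-AF10 and ΔOM-LZ were also read as 3 pairs. Replicate 1 of the minimal fusion also deviated with that of CALM-AF10 (r = 0.717) and of ΔOM-LZ (r = 0.621). Replicate 1 of MIG ran against that of the minimal fusion (r = -0.596), CALM-AF10 (r = -0.475) and ΔOM-LZ (r = -0.509). The labels do not say what a number shares. Unpaired, 23 members were higher in CALM-AF10 and 16 lower, none past the adjusted p (0% of all genes) and 1 with an unadjusted p under 0.05 (2.56%, background 2.38%). Arrays did not overlap for 1 higher member (background 4.81%) and 1 lower (background 2.13%). The higher one was Aen, by 0.28 (SE 0.12, adjusted p = 1, limma), and the lower one Plk3, by 0.32.

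Read in pairs, much of the spread between replicates cancelled for some genes. The 3 pair differences of Gadd45a were 0.27, 0.31 and 0.13, where its levels spanned 4.69-fold, and those of Bbc3 were 0.01, -0.01 and 0.03. All 3 pairs had the same sign for 14 higher members (35.9%, background 22.8%) and 5 lower (12.8%, background 15.8%). Aen was higher by 0.28, 0.12 and 0.45, Sesn1 by 0.13, 0.30 and 0.31, and Perp lower by -0.76, -0.21 and -0.41. A fit of these 6 arrays with the replicate block called no member, against 1 of all 19938 genes (0.00502%), and 11 members (28.2%) had an unadjusted p under 0.05, against 14.6%. The smallest member adjusted p was 0.26 for Perp, with 0.283 for Sesn1 and 0.285 for Aen (limma, 2 residual degrees of freedom). Pair 3 stood apart for some genes, as in Zmat3 with -0.38, -0.27 and 1.09 and Phlda3 with -0.47, -0.39 and 0.64. The mean over all members differed by -0.084, -0.001 and 0.156.

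**Figure D4:**
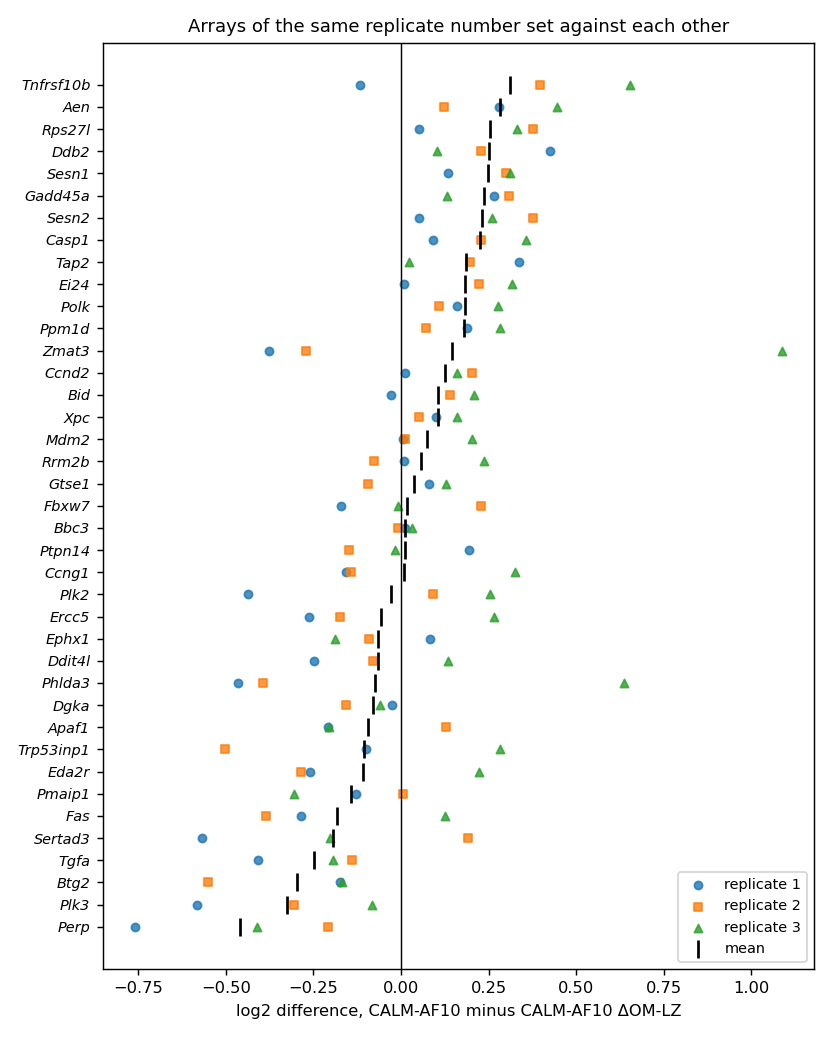
Difference in log2 intensity between CALM-AF10 and CALM-AF10 ΔOM-LZ (horizontal axis) for arrays of equal replicate number, by p53 target gene (vertical axis, sorted by the mean, black bar). Aen, Sesn1 and Ddb2 lie right of 0 in all 3 pairs and Perp, Plk3 and Tgfa left of it, while replicate 3 of Zmat3 stands at 1.09.

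The minimal fusion against CALM-AF10 ΔOM-LZ gave 14 members higher and 25 lower, with a median of -0.18 (all genes 0.00). None passed the adjusted p, against 0.0150% of all genes, and 4 (10.3%) had an unadjusted p under 0.05, against 4.34%. Arrays did not overlap for 3 higher (7.69%, background 3.74%) and 3 lower members (7.69%, background 4.34%). The higher were Sesn1, Xpc and Tap2, and the lower Plk3, Fas and Sertad3. Plk3 was lower by -0.48 (SE 0.16), Dgka by -0.73 (SE 0.32), Tap2, a peptide transporter of antigen presentation, higher by 0.52 (SE 0.20) and Xpc by 0.23 (SE 0.10), each with an adjusted p of 0.999 (limma). Tap2 read 9.60, 9.33 and 9.61 in ΔOM-LZ and 10.27, 9.68 and 10.15 in the minimal fusion, with no overlap. Its lowest array in the minimal fusion lay only just above its highest in ΔOM-LZ.

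Against CALM-AF10 the minimal fusion had 32 of 39 members lower (82.1%, where 52.3% of all genes were lower), with a median of -0.15. The sizes were small beside the spread: the test called no member, against 0.00502% of all genes, and 2 members (5.13%) had an unadjusted p under 0.05, against 1.87%. Arrays did not overlap for 0 higher members (background 2.14%) and 2 lower (5.13%, background 3.55%), Aen and Fas. Sesn2 differed by -0.85 (SE 0.36, adjusted p = 1, limma) at 10.06, 9.53 and 10.51 against 9.84, 8.58 and 9.14, which overlap. Aen differed by -0.26 (SE 0.12, adjusted p = 1, limma). All 7 genes grouped as feedback and p53 regulators, Aen and Phlda3 included, were lower. Their differences ran from -0.04 for Ppm1d to -0.81 for Trp53inp1.

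Of the genes that act on or with p53, 21 of 24 listed were measured and none passed the adjusted p in any comparison. At an unadjusted p under 0.05, Atr, a kinase that signals stalled replication, differed by -0.41 in ΔOM-LZ against MIG (adjusted p = 0.999, limma), and Npm1, a nucleolar protein that binds p53's regulators, by 0.24 in CALM-AF10 against MIG (adjusted p = 0.909, limma). Their mean level was 9.01 in MIG, 8.99 in CALM-AF10, 8.88 in ΔOM-LZ and 9.003 in the minimal fusion. Trp53 itself was not analysed here.

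Cell division genes known to be lowered through p21, such as Ccnb2, Plk1 and Mki67, were set beside the members. The mean of the 14 measured of 15 was 10.68, 9.93 and 10.05 in MIG, 9.59, 10.7 and 9.62 in CALM-AF10, 9.54, 10.60 and 10.006 in ΔOM-LZ and 10.1, 10.7 and 10.4 in the minimal fusion. It was lowest on replicates 1 and 3 of CALM-AF10 and replicate 1 of ΔOM-LZ, 3 arrays on which the p53 target mean was 8.53 or more. By construct it was 10.2 (SD 0.402), 9.96 (SD 0.614), 10.05 (SD 0.530) and 10.4 (SD 0.283), and no gene of this list passed the adjusted p in any comparison. All 14 were higher in the minimal fusion than in CALM-AF10 and than in ΔOM-LZ, by medians of 0.43 and 0.36. Of all genes, 47.7% and 50.6% were higher. In both comparisons none of the 14 had non-overlapping arrays or an unadjusted p under 0.05 (limma). The 14 were high on the same arrays, so they are not separate results.

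**Figure D5:**
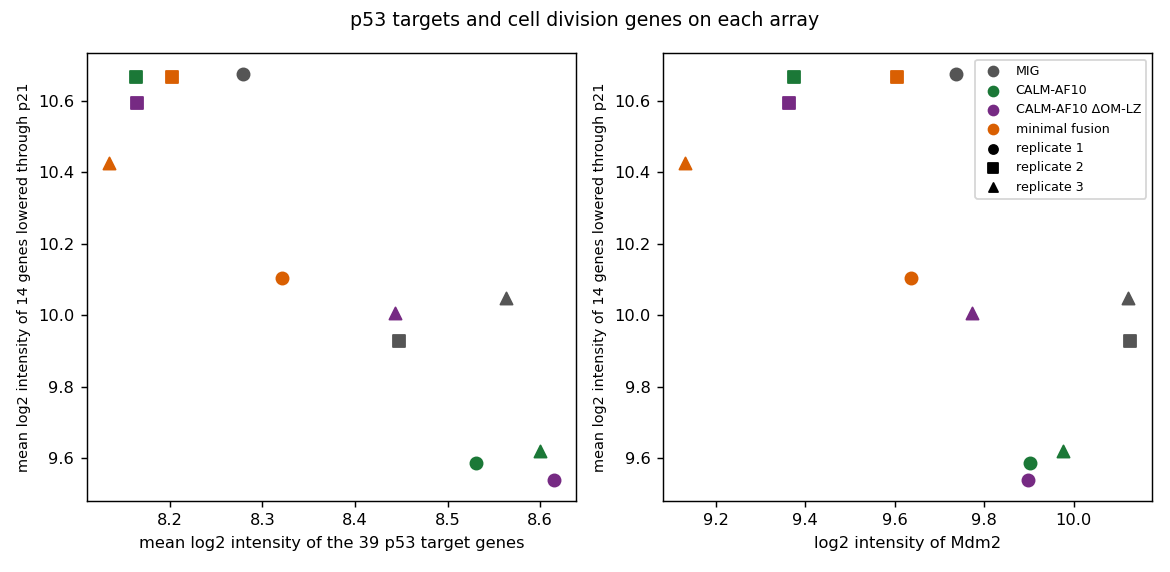
Mean log2 intensity of 14 cell division genes lowered through p21 (vertical axis) against the mean of the 39 p53 target genes (left) and against Mdm2 (right) on each of the 12 arrays, with colour for the construct and shape for the replicate number. Arrays high for p53 targets lie low for division genes, and both ends of the range hold arrays of several constructs.

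Mdm2 was set against 5 other members and these division genes over the 12 arrays, 6 relations in all, with permutation tests (100000 resamples, two-sided). Mdm2 took the place of Cdkn1a after the data were seen, and the division genes were not among the planned relations. The adjusted p values thus cover a set of relations that was not planned in this form. Trp53inp1 followed it most closely, with Pearson r = 0.901 (permutation p = 1e-04, adjusted 6e-04) and Spearman rho = 0.853 (permutation p = 0.00091, adjusted 0.00543). Zmat3 gave r = 0.74 (permutation p = 0.00625, adjusted 0.0187) and rho = 0.818 (permutation p = 0.00181, adjusted 0.00543). Without the 2 arrays farthest from the Mdm2 median, replicate 3 of the minimal fusion and replicate 2 of ΔOM-LZ, r was 0.885 for Trp53inp1 and 0.662 for Zmat3.

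These relations lay within constructs too. On deviations from the construct means, r was 0.901 for Trp53inp1, 0.877 for Zmat3 and 0.842 for Ccng1, each with an adjusted p of 0.0123 (exact permutation within constructs, 1296 arrangements). Both kinds of permutation treat the arrays as independent, so these p values may be too small. Equal-numbered arrays of CALM-AF10 and ΔOM-LZ were not independent, and some arrays of the other constructs were also related to these. Over all arrays Ccng1 had r = 0.593 (permutation p = 0.0432, adjusted 0.0519) and rho = 0.538 (permutation p = 0.076, adjusted 0.0912), and r = 0.431 without the same 2 arrays. The mean of Mdm2 was highest in MIG, and that of Ccng1 in CALM-AF10.

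Phlda3 gave r = 0.65 (permutation p = 0.0223, adjusted 0.0334), rho = 0.671 (permutation p = 0.0203, adjusted 0.034), 0.655 without those arrays and 0.649 within constructs (exact permutation p = 0.0725, adjusted 0.0725). For Aen neither measure passed over all arrays, with r = 0.0407 (permutation p = 0.9, adjusted 0.9) and rho = 0.105 (permutation p = 0.748, adjusted 0.748). Its r was -0.11 without the same 2 arrays and 0.637 within constructs (exact permutation p = 0.0586, adjusted 0.0704). The division genes gave r = -0.681 (permutation p = 0.0166, adjusted 0.0332), rho = -0.664 (permutation p = 0.0227, adjusted 0.034), -0.673 without the same 2 arrays and -0.832 within constructs (exact permutation p = 0.0147, adjusted 0.022). The adjusted p for Phlda3 and for the division genes exceeded 0.05 once replicate 1, 2 or 3 of CALM-AF10 was left out, reaching 0.0759 and 0.0698, and for Phlda3 also without replicate 3 of MIG (0.0833).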

How the data were processed

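The authors deposited log2 intensities per probe set. Affymetrix Expression Console is the tool that the submitters' processing notes name, and its version, summarization and normalization were not given in the sources used here. That the scale is log2 follows from the range of the values, which were used without further normalization. Probe sets were named from the platform annotation: 21789 carried 1 gene symbol, 1621 several and 12146 none. limma 3.58.1 in R 4.3.3 (lmFit, eBayes) fitted 1 mean per construct over 12 arrays, with 8 residual degrees of freedom, two-sided, with Benjamini-Hochberg adjustment over the 23410 probe sets with a symbol. It was tested on simulated data. Counts over all genes use the brightest probe set of each of 19938 genes. With 3 arrays a group, an exact permutation test of a single gene could not go below p = 0.1. The number of arrays limits the precision.

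A difference was named for a member where its unadjusted p was under 0.05, at most 8 per comparison. Other members with values were chosen after their values were seen: those most or least spread, those whose arrays did not overlap, and examples of a role. The members and lists were chosen with earlier results of these data known. No p is given for the mean over members. Same-numbered arrays correlated over 0.1 in every pair only between CALM-AF10 and ΔOM-LZ, a pairing that no label states. Alternatives were median centring, quantile normalization, a filter on dim probe sets, all probe sets of the file, the mean of a gene's probe sets, trend and robust variance, fits of 2 constructs alone, the replicate block and leaving out each array.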

Additional observations from a re-analysis of the deposited data

How the results depend on the processing

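The count of p53 target genes past the adjusted p stayed 0 in every comparison, and the F test, under every alternative run, the replicate block over all 12 arrays included (0 members, paired or not). Differences named for single members kept their sign and stayed outside the threshold. The mean over members for the minimal fusion minus MIG stayed between -0.286 and -0.145 on the log2 scale, against CALM-AF10 between -0.346 and -0.128, and against ΔOM-LZ between -0.31 and -0.085. These ranges leave out the version with each member divided by its SD, which is on another scale. For CALM-AF10 minus MIG it ran from -0.083 to 0.135, for ΔOM-LZ minus MIG from -0.126 to 0.099, and between these fusions from -0.097 to 0.158, so their sign is not settled. Counts of members whose arrays do not overlap moved by over 1.5 times under 29 combinations of comparison and alternative and by less under 67. The r of Mdm2 with Aen turned to -0.0938 under quantile normalization, and ran from -0.105 to 0.312 when 1 array was left out (-0.0573 without CALM-AF10 replicate 1, -0.0724 without minimal fusion replicate 3). The cause was not tested. The planned relation of Cdkn1a to other members was not run, since its probe set carries 2 symbols. Mdm2 took its place after the data were seen, as did the 6-array replicate block and the mean without Phlda3, Zmat3 and Trp53inp1.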
